A study of Mus musculus with 2 samples.

Results

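The 10 genes described here encode transcription factors and Notch receptors of the epidermis, namely *Trp63*, *Klf4*, *Klf5*, *Grhl1*, *Grhl3*, *Ovol1*, *Notch1*, *Notch3*, *Hes1* and *Zfp750*. They were chosen by symbol from the 19465 genes of the feature table, and each symbol was found once. *Notch1* and *Notch3* are receptors rather than DNA-binding factors, and their cleaved intracellular parts act in the nucleus. The epidermis renews itself from a basal layer of dividing keratinocytes, which leave that layer, switch keratins in the suprabasal layers and finally build the cornified layer from filaggrin, loricrin and late envelope proteins. p63, encoded by *Trp63*, maintains the basal program, Notch signaling acts at the exit from the basal layer, and KLF4, GRHL3, OVOL1 and ZNF750 (*Zfp750* in mouse) are known for driving or permitting terminal differentiation. In psoriasis-like skin this program is disturbed, with thickened epidermis and incomplete cornification.

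Expression was measured by spatial transcriptomics in back skin sections of 2 mice, 1 S1pr2 fl/fl mouse and 1 S1pr2 fl/fl K14-Cre mouse, each 8 weeks old and each treated on depilated skin with 62.5 mg of 5% imiquimod (IMQ) cream daily for 7 days. Both mice carried the floxed *S1pr2* allele, a receptor for sphingosine-1-phosphate, and the K14 promoter directs Cre to keratinocytes of the basal layer and their progeny, hair follicles included. The section of the mouse without K14-Cre is called Cre-free below, and the other section is called K14-Cre. No section of untreated skin was analysed here, so the values describe IMQ-treated skin only. With 1 section per genotype there was no replicate, and therefore no test between genotypes was made. Intervals are 95% intervals of counting error, and a difference between the sections cannot be told apart from a difference between any pair of mice, sections or libraries.

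Each spot of the array collects RNA from a small area that can hold several cells. The Cre-free section held 1282 tissue spots with 5315351 unique molecular identifiers (UMIs) and a median of 3542.5 per spot, and the K14-Cre section held 981 spots with 2845826 UMIs and a median of 2319. The sections shared 357 spot barcodes, which are positions of the array and not cells. Parts of both sections stood apart. The Cre-free section had a stretch of low UMI counts that includes a cluster of 201 spots with a median of 540 UMIs, and both sections were bent at 1 end, where the deepest tissue rows lay. *S1pr2* itself was counted 154 times in the Cre-free section and 54 times in the K14-Cre section, and in the epidermal region 19 and 11 times. Where its probes lie relative to the floxed part is not given in the sources used here, so these counts do not check the genotype.

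The epidermal region was set by clustering the spots of each section without any of the listed genes and taking the cluster in which most of 15 keratinocyte markers exceeded their level in the remaining spots at least 2-fold. In the Cre-free section it held 152 spots with 1176584 UMIs, and 11 of the 15 markers were raised. In the K14-Cre section it held 176 spots with 556513 UMIs, and 14 of the 15 were raised. A further cluster of 116 spots in the Cre-free section, led by *Sprr2i*, *Lce3a*, *Sprr2f* and other cornified-layer genes with 7 of the 15 markers raised, lay along the surface but missed the rule and was counted among the other spots. The Cre-free region thus leaves out part of the surface, and the main values with this cluster counted in stand in the closing paragraphs on processing.

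**Figure D1:**
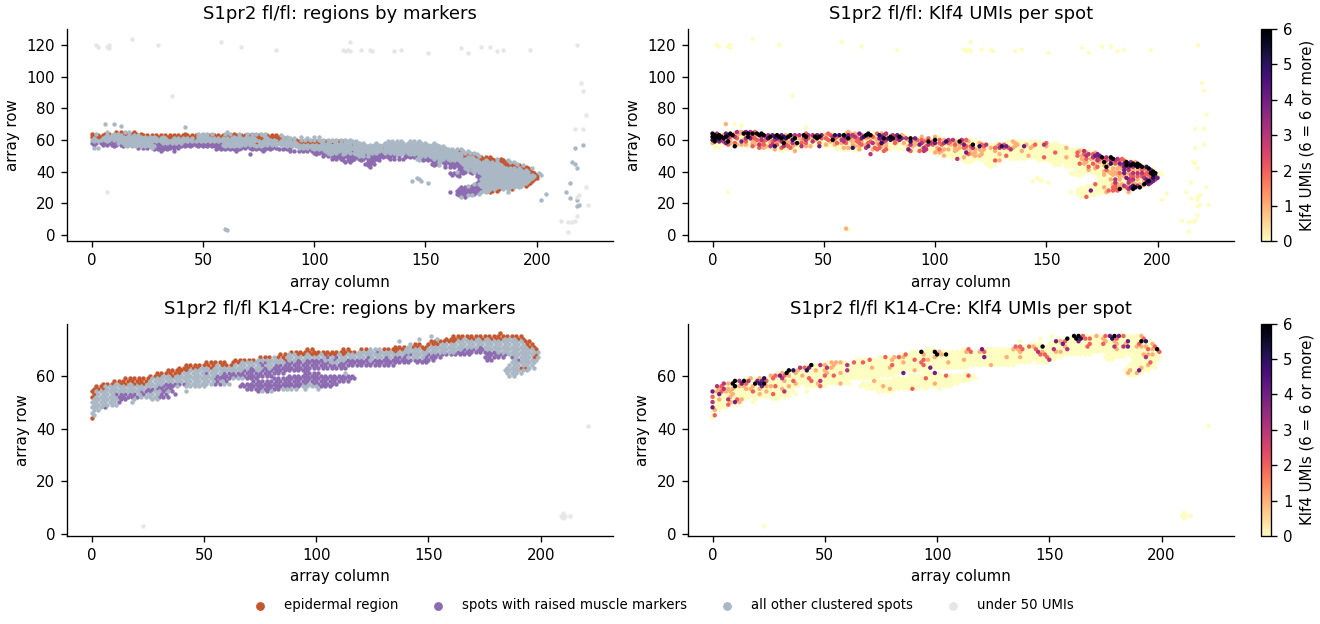
Spots of the Cre-free (S1pr2 fl/fl) section (top) and the K14-Cre section (bottom), placed by array column and array row. The left panels show the epidermal region of 152 and 176 spots along the upper edge and the spots with raised muscle markers below it. The right panels show the *Klf4* UMIs of each spot, 1754 in all in the Cre-free section and 578 in the K14-Cre section, with the highest counts along the upper edge and, in the Cre-free section, at the bent end.

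Background and the level of keratinocyte markers outside the epidermal region differed between the sections, and they touch every value below. Background was read from 1226 chemosensory receptor genes of smell and taste, and whether skin uses any of them was not tested. They made up 1589 CPM (UMIs scaled to a total of 1000000) in the Cre-free epidermal region and 9660 CPM in the K14-Cre epidermal region, a mean of 1.30 and 7.88 CPM per receptor gene. In the muscle-marker spots they made up 2196 CPM in the Cre-free and 3092 CPM in the K14-Cre section. All 10 genes lay above the most counted receptor gene (22 UMIs) in the Cre-free epidermal region, whereas in the K14-Cre epidermal region 7 of 10 lay above it (61 UMIs). *Klf5* with 32 UMIs, *Grhl1* with 29 and *Notch3* with 53 did not, so their levels in that region are not separated from the most counted background genes. Keratinocyte markers were also counted below the epidermal region, at different levels in the sections. They summed to 20385 CPM in the muscle-marker spots of the Cre-free section and to 3326 CPM in those of the K14-Cre section. These sums do not tell spread RNA from keratinocytes in the spots. The part of background and of spread RNA in the differences described here was not tested.

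Of the paralog pairs with sequence at hand for both, *Grhl1* and *Grhl3* differed more in their ratios between the sections (-1.05 and 0.17) than *Notch1* and *Notch3* (0.86 and 0.12), so the DNA before their annotated starts is shown. The 250 bases before a start of *Grhl1* (chr12:24572037-24572286, plus strand) and of *Grhl3* (chr4:135573633-135573882, minus strand) are given below from RefSeq on GRCm38.p6, the build also called mm10, with matches to the searched motifs in capitals. Searched on both strands were CACCC, a core bound by KLF factors, AACCNGTT, bound by GRHL factors, and TTCCCAC, bound by the Notch partner RBPJ. None of these motifs overlapped another in either window. The *Grhl1* window ends inside the span annotated for that gene, which begins at chr12:24572232. The *Grhl3* window lies outside its gene.
Grhl1: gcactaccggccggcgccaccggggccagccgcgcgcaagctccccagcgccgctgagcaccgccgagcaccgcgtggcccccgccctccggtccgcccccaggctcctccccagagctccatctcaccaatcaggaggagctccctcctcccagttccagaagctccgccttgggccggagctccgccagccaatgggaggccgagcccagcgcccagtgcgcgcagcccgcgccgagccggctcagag
Grhl3: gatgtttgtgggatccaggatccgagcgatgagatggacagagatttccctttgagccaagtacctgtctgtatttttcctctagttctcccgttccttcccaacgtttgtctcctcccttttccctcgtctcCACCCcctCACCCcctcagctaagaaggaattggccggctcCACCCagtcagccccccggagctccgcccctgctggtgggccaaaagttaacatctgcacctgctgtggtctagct

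The *Grhl3* window held 3 matches to CACCC and the *Grhl1* window none, and neither held a match to the other motifs. Of 32851 annotated promoter windows of this length, 52.0% held CACCC, 1.79% held AACCNGTT and 5.42% held TTCCCAC. A second annotated start of *Grhl1* (chr12:24580469-24580718) held 2 matches to CACCC. Sequence before a start was at hand for *Klf4*, *Grhl1*, *Grhl3*, *Notch1* and *Notch3*, that is for 5 of the 10 genes. A match describes these letters only.

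Over skin depth, 6 of the genes were highest in the uppermost rows of both sections, and *Trp63*, *Notch1*, *Notch3* and *Hes1* followed other courses. Depth was counted in tissue rows of the array below the uppermost tissue spot of each stretch. *Klf4* (chr4:55527137-55532475), a zinc finger factor needed for the skin barrier, measured 709.9 CPM in rows 1 to 2 of the Cre-free section, 423 in rows 3 to 4, 245 in rows 5 to 8 and 206 in rows 9 to 12. In the K14-Cre section the same rows measured 575, 233, 90.3 and 58.5 CPM. *Klf4* thus decreased with every step down to row 12 in both sections, with a shallower course in the Cre-free section. *Zfp750* (chr11:121510976-121519342), a zinc finger factor of late differentiation, measured 476, 432, 242 and 122 CPM in the Cre-free section and 446, 269, 35.3 and 26.2 CPM in the K14-Cre section. *Grhl3* (chr4:135541887-135573632), required for barrier formation, measured 377, 280.4, 109.9 and 49.6 CPM against 469, 76.6, 18.9 and 12.1 CPM. *Ovol1* (chr19:5549137-5560575), a repressor that limits keratinocyte proliferation, measured 459, 318, 180.1 and 104 CPM against 438, 124, 15.5 and 26.2 CPM. In rows 1 to 2 the intervals of *Zfp750*, *Grhl3* and *Ovol1* overlapped between the sections and *Klf4* was lower in the K14-Cre section, and from row 3 to row 12 all 4 of these genes were lower there.

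*Klf5* (chr14:99298691-99313412), a factor of proliferating epithelial cells, and *Grhl1* (chr12:24572232-24617391), which controls desmosomal genes, also declined with depth in the Cre-free section. *Klf5* measured 217, 175, 138 and 74.9 CPM there, and 67.8, 34.1, 23.2 and 52.5 CPM in the K14-Cre section. *Grhl1* measured 112, 87.3, 46.0 and 37.4 CPM against 52.3, 25.5, 14.6 and 8.07 CPM. Both genes were therefore lower in the K14-Cre section already in the uppermost rows, and *Klf5* showed no steady course there below them. In the 178 spots at row 13 or deeper of the Cre-free section, most of them at the bent end, the levels of all but *Klf4* lay above those of rows 9 to 12. *Grhl3* measured 128 CPM, *Ovol1* 176, *Klf5* 91.3, *Grhl1* 48.1, *Zfp750* 136 and *Klf4* 186 CPM there, and the keratinocyte markers in sum were also higher than in rows 9 to 12, at 40323 CPM.

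The remaining 4 genes did not peak at the surface in both sections. *Trp63* (chr16:25683763-25892088) was highest in rows 3 to 4, at 133 CPM in the Cre-free section and 114 CPM in the K14-Cre section, beside 112 and 103 CPM in rows 1 to 2, although the intervals of these neighboring rows overlapped. *Notch1* (chr2:26457902-26503822) was likewise highest in rows 3 to 4, at 113 and 152 CPM. *Hes1* (chr16:30065357-30067796), a repressor that Notch signaling switches on, was nearly level in the Cre-free section, at 81.7, 87.3, 101 and 72.8 CPM. In the K14-Cre section *Hes1* measured 215, 208, 83.4 and 52.5 CPM, so the sections differed in the upper rows and not beyond the intervals below them. *Notch3* (chr17:32120820-32166896), a receptor also made by pericytes and smooth muscle of vessels, measured 66.0, 75.0, 70.3 and 44.5 CPM against 120.1, 83.4, 46.4 and 38.4 CPM. At row 13 or deeper *Notch3* reached its highest level in both sections. This was 94.6 CPM in the Cre-free section, with an interval that overlapped those of rows 1 to 8. In the K14-Cre section it was 261 CPM, on 22 UMIs in 32 spots. In these 32 spots *Zfp750* was at 0 of 84334 UMIs, where a floor of 3 counts stands at 35.6 CPM.

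Summed over the 10 genes, rows 1 to 2 exceeded the rows from 5 downward by 1.23 (1.15 to 1.31) on the log2 scale in the Cre-free section and by 2.59 (2.46 to 2.73) in the K14-Cre section. The 15 keratinocyte markers took a similar course, with 25185 CPM in rows 9 to 12 of the Cre-free section and 3817 CPM in those of the K14-Cre section. The part of spread RNA in the shallower courses of the Cre-free section was not tested.

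**Figure D2:**
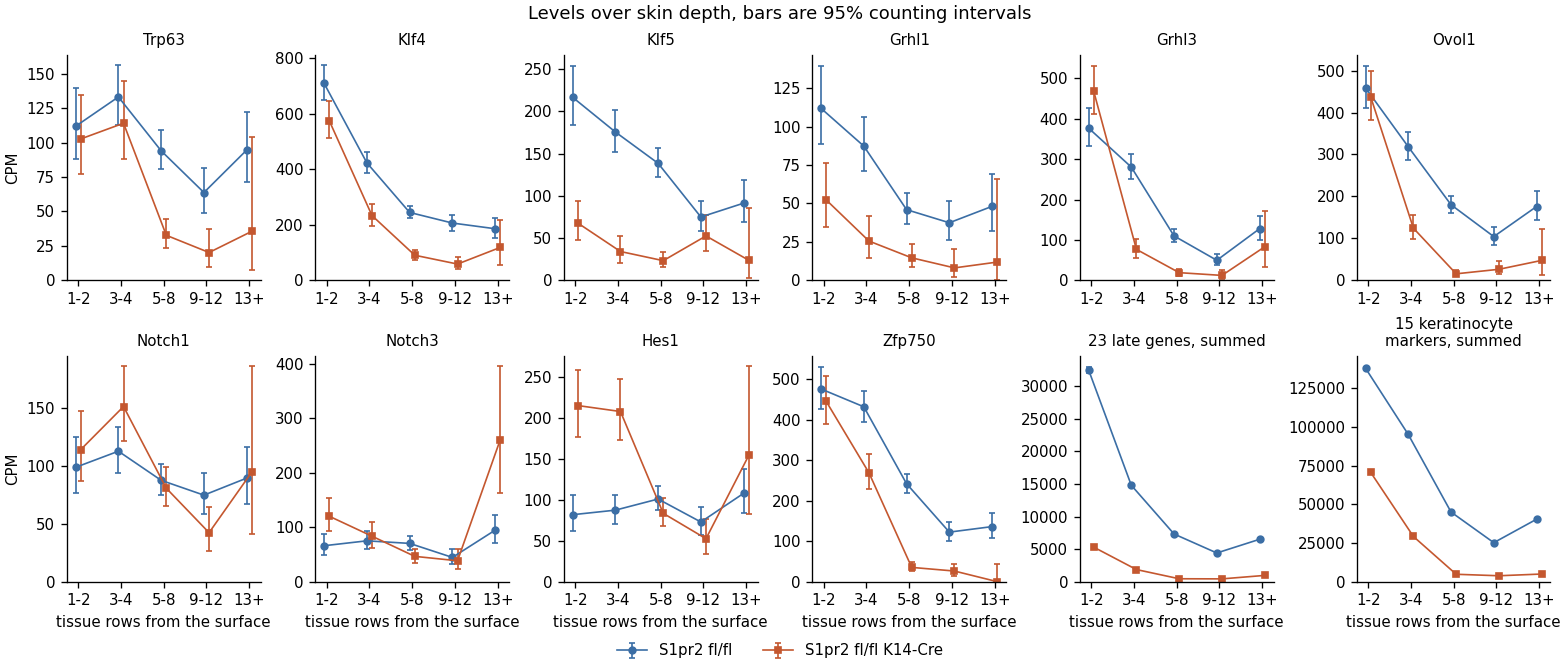
CPM of each gene, of 23 late differentiation genes summed and of 15 keratinocyte markers summed, against tissue rows counted from the skin surface, in the Cre-free (S1pr2 fl/fl) section (circles) and the K14-Cre section (squares). Points are sums over the spots of a depth class with 95% counting intervals. *Klf4*, *Grhl3*, *Ovol1* and *Zfp750* decline faster down to row 12 in the K14-Cre section, *Klf5* and *Grhl1* are lower there from the surface on, and *Hes1* is higher in rows 1 to 4.

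Epidermal spots carried more of most of these transcripts than the other spots of the same section. In the Cre-free section 5 of the 10 genes were at least 2-fold higher in the epidermal region, as were 3.98% of the 17683 genes with at least 10 UMIs. In the K14-Cre section 7 of the 10 were, beside 18.6% of 18080 genes. Keratinocyte markers, which placed the region, stood 1.48 higher on the log2 scale in the first and 2.96 higher in the second.

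*Grhl3* had the steepest difference in both sections. It measured 404 CPM in the epidermal and 106 CPM in the other spots of the Cre-free section, and 453 against 30.6 CPM in the K14-Cre section, which are log2 ratios of 1.92 (1.73 to 2.12) and 3.89 (3.50 to 4.29). *Ovol1* followed with 459.8 against 167 CPM and 409.7 against 46.3 CPM, or 1.46 (1.30 to 1.63) and 3.15 (2.81 to 3.49). *Zfp750* and *Klf4* behaved alike in this respect. *Zfp750* was higher in epidermal spots by 1.04 (0.88 to 1.19) and 2.43 (2.16 to 2.71), and *Klf4* by 1.22 (1.08 to 1.36) and 2.32 (2.08 to 2.56). *Grhl1* was higher by 1.14 (0.81 to 1.46) and 1.77 (1.01 to 2.52). In the other K14-Cre spots the 70 UMIs of *Grhl3*, 106 of *Ovol1* and 35 of *Grhl1* did not exceed the most counted receptor gene (164 UMIs). *Klf5* was higher by 0.76 in both sections. With only 32 epidermal UMIs in the K14-Cre section its interval there ran from 0.11 to 1.37, and at clustering resolution 0.5 its ratio there was -0.01. Among the clusters of the Cre-free section, *Klf4* was highest in the surface cluster of 116 spots counted among the other spots. It measured 774 CPM there, beyond the interval of the epidermal region. *Ovol1* (473 CPM) and *Zfp750* (548 CPM) were also highest in that cluster, with intervals that overlapped those of the epidermal region.

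The basal regulator and the Notch genes were less tied to the epidermal region in the Cre-free section. The other spots there included an unnamed cluster of 251 spots, led by *Bcl2l10*, *Mc5r*, *Serpina3b* and *Krt77*, with 1742204 of their 4138394 UMIs. It held 233 of the 397 *Trp63* UMIs and 223 of the 401 *Notch1* UMIs of the other spots. For *Hes1* it held 187 of 369 and for *Notch3* 146 of 262. The part of this cluster in the ratios was not tested. In muscle-marker spots of this section *Trp63* measured 40.4 CPM, *Notch1* 59.0, *Hes1* 73.5 and *Notch3* 32.1. In the K14-Cre section the ratios of *Trp63* and *Hes1* lay above that of *Klf5* (0.76). *Trp63* measured 110.5 CPM in epidermal and 95.9 CPM in other spots of the Cre-free section, a log2 ratio of 0.20 (-0.09 to 0.49), and 111 against 47.6 CPM in the K14-Cre section, or 1.23 (0.75 to 1.69). *Notch3* ratios were 0.47 (0.12 to 0.80) and 0.51 (0.03 to 0.97), and the ratio of the Cre-free section was -0.07 at its lowest over the alternative settings. *Hes1* measured 97.7 CPM in epidermal and 89.2 CPM in other spots of the Cre-free section, or 0.13 (-0.18 to 0.44), and 248 against 101 CPM in the K14-Cre section, or 1.30 (0.98 to 1.61). *Notch1* was the only gene whose epidermal level lay below that of the other spots, with 76.5 against 96.9 CPM in the Cre-free section, and this order turned with a TMM factor (0.17) and with the uppermost 2 rows taken as epidermis (0.12). In the K14-Cre section *Notch1* measured 138 CPM in epidermal and 84.7 CPM in other spots. *Trp63* and *Notch1* reached their highest level among the clusters of the Cre-free section, 163 CPM each, in the low-UMI cluster of 201 spots. *Hes1* was highest there in a muscle-marker cluster, at 122 CPM. For each of these genes the interval of the next cluster overlapped. *Trp63*, *Notch1* and *Hes1* reached their highest level in the K14-Cre section, 152, 177 and 274 CPM, in a cluster of 75 spots with 3 of 6 hair markers and 5 of 15 keratinocyte markers raised. For all 3 the interval of the next cluster of the K14-Cre section, the epidermal region, overlapped.

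**Figure D3:**
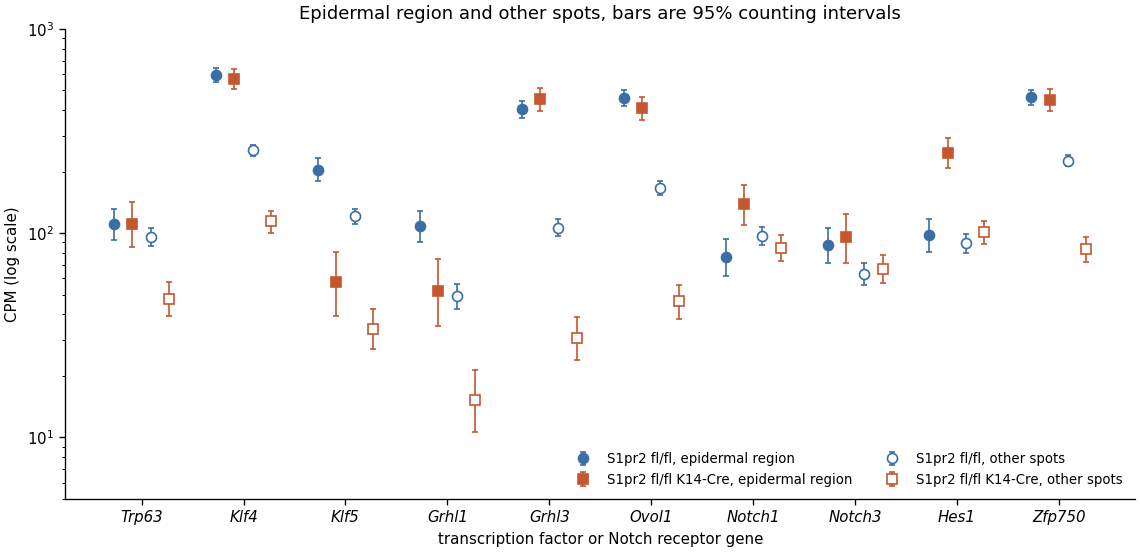
CPM on a log axis of each gene in the epidermal region (filled) and in the other spots (open) of the Cre-free (S1pr2 fl/fl) section (circles) and the K14-Cre section (squares), with 95% counting intervals. Filled points lie above open points for every gene except *Notch1* in the Cre-free section, where 76.5 CPM lie below 96.9 CPM, and the open squares of *Klf4*, *Grhl3*, *Ovol1* and *Zfp750* lie well below the open circles.

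The share of spots with a UMI was also compared at equal depth, and it did not follow the CPM of every gene. After thinning every spot to 1000 UMIs, which left 152 and 162 epidermal spots, *Klf4* was seen in 45.4% (37.3 to 53.7) of them in the Cre-free section and 38.3% (30.8 to 46.2) in the K14-Cre section. Before thinning these shares were 91.4% and 54.0%, at median depths of 6829.5 and 2417.5 UMIs. In muscle-marker spots, where keratinocyte markers were also counted, thinned *Klf4* shares were 12.4% and 4.67%. *Hes1* was seen in 5.92% (2.74 to 10.9) and 16.0% (10.8 to 22.6) of thinned epidermal spots, beside 8.10% and 3.12% of thinned muscle-marker spots. *Klf5* was seen in 17.1% (11.5 to 24.0) and 4.32% (1.75 to 8.70) of thinned epidermal spots, beside 6.67% and 5.30% in muscle-marker spots. The *Klf5* share of the K14-Cre epidermis did not exceed that of muscle-marker spots, and whether it is background was not tested. The *Hes1* share of the Cre-free epidermis did not exceed that of muscle-marker spots either, although its 115 UMIs there lay above every receptor gene. Of the 10 genes only *Hes1* had a higher thinned epidermal share in the K14-Cre section. *Notch1*, higher there by CPM, was seen in 9.21% and 7.41% of thinned epidermal spots, with overlapping intervals. At close CPM, *Trp63* was seen in 13.2% and 6.17% and *Zfp750* in 40.8% and 28.4%, also with overlapping intervals.

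At CPM scaling, most of these genes had close levels in the epidermal regions of the sections, while the late differentiation genes were several-fold lower in the K14-Cre section. Of the 10 genes, *Klf5* and *Grhl1* were at least 2-fold lower, beside 9.10% of the 13293 genes with at least 10 UMIs, and *Hes1* was at least 2-fold higher, beside 37.5% of these genes. The intervals of *Trp63*, *Klf4*, *Grhl3*, *Ovol1*, *Notch3* and *Zfp750* held 0. The median log2 ratio of the 10 genes was -0.01 and that of all genes with at least 10 UMIs 0.56, so the median of the 10 lay 0.57 below that of all genes. With other scalings the median of all genes moved to -0.17 (TMM factor) and 1.38 (scaled to keratinocyte markers). The median of the 10 genes turned to -0.74 and 0.80. The keratinocyte markers include the suprabasal genes *Krt1* and *Krt10*, which were themselves lower in the K14-Cre region. Scaling to their sum thus also takes out part of a fall of differentiation genes. *Klf5* and *Grhl1* stayed lower and *Hes1* and *Notch1* higher under each scaling, whereas the sign of the other 6 depended on it. A spot average does not tell fewer cells from less RNA per cell.

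*Klf5* measured 205 CPM (241 UMIs) in the Cre-free and 57.5 CPM (32 UMIs) in the K14-Cre epidermal region, a 3.56-fold lower level and a log2 ratio of -1.83 (-2.41 to -1.30). In the other spots *Klf5* was lower by the same ratio, -1.83 (-2.19 to -1.48), and in the muscle-marker spots by -1.26 (-1.84 to -0.71). *Klf5* was thus not lower in the epidermal region alone. Its 32 UMIs in the K14-Cre epidermal region did not exceed the most counted background gene (61 UMIs), so the size of the fold is uncertain. *Grhl1* measured 108 CPM (127 UMIs) and 52.1 CPM (29 UMIs), or -1.05 (-1.69 to -0.46), and with scaling to keratinocyte markers its ratio was -0.24 (-0.87 to 0.35), an interval that holds 0. Its paralog *Grhl3* measured 404 CPM (475 UMIs) and 453 CPM (252 UMIs), or 0.17 (-0.06 to 0.39).

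*Hes1* had the highest ratio of the 10 genes. It measured 97.7 CPM (115 UMIs) in the Cre-free region and 248 CPM (138 UMIs) in the K14-Cre region, which is 2.54-fold higher and 1.34 (0.98 to 1.71) on the log2 scale. The receptor gene *Notch1* measured 76.5 CPM (90 UMIs) and 138 CPM (77 UMIs), or 0.86 (0.40 to 1.31), and 0.13 (-0.33 to 0.58) with a TMM factor. Of its 77 UMIs in the K14-Cre region, 17 lay in 1 spot and 47 in 1 of the 4 segments described below. Counting intervals do not allow for such clumping. Relative to the median of all genes, *Hes1* stood 0.78 and *Notch1* 0.29 higher. *Notch3* measured 87.5 CPM (103 UMIs) and 95.2 CPM (53 UMIs), or 0.12 (-0.38 to 0.61). Hair markers summed to 15.3 CPM in the Cre-free and 71.9 CPM in the K14-Cre epidermal region, endothelial markers to 57.8 and 146 CPM, and pericyte and smooth muscle markers to 72.2 and 88.0 CPM. The part of these cells in the *Hes1* and *Notch* values was not tested.

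The differentiation regulators and *Trp63* had close levels at CPM scaling. *Klf4* measured 595 CPM (700 UMIs) and 569.6 CPM (317 UMIs), or -0.06 (-0.26 to 0.13). *Zfp750* measured 464 CPM (546 UMIs) and 451 CPM (251 UMIs), or -0.04 (-0.26 to 0.18). *Ovol1* measured 459.8 CPM (541 UMIs) and 409.7 CPM (228 UMIs), or -0.17 (-0.40 to 0.06), and *Trp63* 110.5 CPM (130 UMIs) and 111 CPM (62 UMIs), or 0.01 (-0.45 to 0.46). For these 4 genes the counting intervals left out a 2-fold ratio in either direction at this scaling, but they do not hold the spread along a section. *Trp63* ranged from 11.5 CPM (1 UMI) to 178 CPM (43 UMIs) over the K14-Cre segments described below. Of its 62 UMIs there, 11 lay in 1 spot. A 2-fold difference is therefore not excluded.

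Outside the epidermal region the sections differed more. In the other spots 7 of the 10 genes were at least 2-fold lower in the K14-Cre section, beside 5.88% of 18807 genes, from -1.01 for *Trp63* to -1.85 for *Ovol1*. *Notch1*, *Notch3* and *Hes1* differed by -0.19, 0.08 and 0.18, with intervals that held 0. The other spots were not alike in tissue. Muscle-marker spots held 965348 of their 4138394 UMIs in the Cre-free section and 996792 of 2289312 in the K14-Cre section. In the muscle-marker spots alone the ratios ran from -3.89 for *Ovol1* to 0.17 for *Notch3*, with *Trp63* at -0.24 and *Hes1* at -0.95. The part of tissue makeup in the ratios of the other spots was not tested. In the other spots all 10 genes exceeded the most counted receptor gene of the Cre-free section (180 UMIs), but only 4 that of the K14-Cre section (164 UMIs). *Trp63* (109 UMIs), *Klf5* (78), *Grhl1* (35), *Grhl3* (70), *Ovol1* (106) and *Notch3* (153) did not exceed it, so the sizes of their ratios are uncertain. The summed keratinocyte markers stood at 45646 CPM in these spots without Cre and 9298 CPM with K14-Cre, a log2 ratio of -2.30.

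The late differentiation genes code for structural proteins, enzymes and proteases of the cornified layer. Of 30 genes listed, 23 were in the feature table and 21 had at least 10 UMIs over both epidermal regions. All 21 were lower in the K14-Cre section, beside 32.0% of all genes with at least 10 UMIs. Of them 20 were at least 2-fold lower, beside 9.10% of all genes. Their median log2 ratio was -2.05, and they were lower in sum under each scaling. Summed, they measured 24446 CPM (28763 UMIs) in the Cre-free and 5216 CPM (2903 UMIs) in the K14-Cre region, or -2.23 (-2.28 to -2.17). Markers of other tissue were higher in the same K14-Cre region, in sum by 1.49 on the log2 scale for muscle, 1.38 for fat, 0.62 for sebaceous gland and 0.53 for dermis, and their part in the lower values was not tested. The 3 with the lowest ratios were *Flg*, filaggrin, with 7029 against 505 CPM, *Rptn*, repetin, with 1483 against 108 CPM, and *Hrnr*, hornerin, with 2046 against 162 CPM. The 3 with the highest ratios were *Casp14*, a caspase that processes filaggrin, at -1.18, the protease *Klk7* at -1.17 and the transglutaminase *Tgm3* at -0.34. *Lor*, loricrin, stood at -2.05 (-2.21 to -1.90).

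Genes of the suprabasal layers were also lower, 10 of 10 listed and 8 of them at least 2-fold, beside 32.0% and 9.10% of all genes. Among them were *Krt1* with 9766 against 2286 CPM and *Krt10* with 16728 against 3328 CPM. Basal genes had a median ratio of 0.09, with *Krt5* at 4369 against 4609 CPM, *Krt14* at 30139 against 25509 CPM, and the integrin gene *Itgb4* at 1.30 (1.02 to 1.57). Keratinocyte markers in sum were 126898 and 72203 CPM. Beside the late genes, at a median of -2.05, the 10 regulators spanned -1.83 to 1.34.

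**Figure D4:**
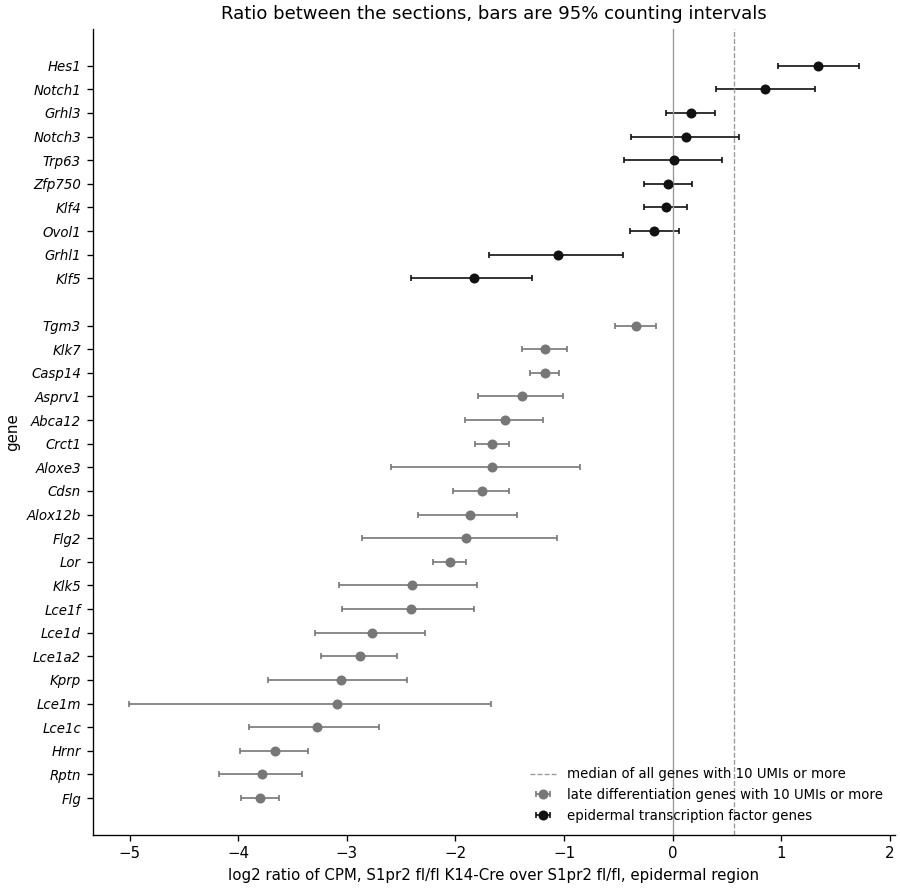
Log2 ratio of CPM in the epidermal region, K14-Cre over Cre-free (S1pr2 fl/fl), for the 10 genes (black) and for the 21 late differentiation genes with at least 10 UMIs (grey), with 95% counting intervals. The solid line marks equal CPM and the dashed line the median of all genes with at least 10 UMIs (0.56). All 21 late genes lie below 0, while of the 10 genes *Klf5* and *Grhl1* lie below and *Notch1* and *Hes1* above 0 with intervals that leave it out. The other 6 are near 0 at this scaling and change sign with another.

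The Notch pathway was followed through lists of its ligands, receptors, processing proteins and targets. Of the ligand genes with at least 10 UMIs, 2 of 3 were at least 2-fold higher in the K14-Cre epidermal region and none 2-fold lower, beside 37.5% and 9.10% of all genes. *Jag2*, a ligand made in the basal layer, measured 66.3 and 185 CPM, or 1.48 (1.04 to 1.92), and *Jag1* 72.2 and 52.1 CPM, or -0.47 (-1.13 to 0.15). Among the receptors, *Notch2* measured 55.2 and 30.5 CPM and *Notch4*, an endothelial receptor, 15.3 and 35.9 CPM. Of 14 processing and cofactor genes 4 were at least 2-fold lower and 2 at least 2-fold higher, beside the same shares. *Rbpj*, the DNA-binding partner of cleaved Notch, measured 10.2 and 32.3 CPM on 12 and 18 UMIs. Of 4 targets, 3 were at least 2-fold higher, beside 37.5% of all genes, and *Nrarp*, which dampens Notch signaling, was lower with 166 and 68.3 CPM, or -1.28 (-1.82 to -0.77). The targets therefore did not move one way. Apart from *Hes1* the higher ones (*Hey1* and *Heyl*, named after their values were seen) had 12 and 9 UMIs in the K14-Cre region. *Jag1* (29 UMIs there), *Notch2* (17), *Notch4* (20), *Rbpj* (18) and *Nrarp* (38) did not exceed the most counted chemosensory receptor gene (61 UMIs) either. The sizes of their ratios are therefore uncertain.

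Of 26 other transcription factor genes of the epidermis 13 were lower and 13 higher, 7 at least 2-fold lower and 4 at least 2-fold higher, with a median of -0.02. Of all genes, 32.0% were lower, 9.10% at least 2-fold lower and 37.5% at least 2-fold higher. Among those with at least 30 UMIs the lowest were *Klf3* with 252 and 48.5 CPM, *Rora* with 334 and 80.9 CPM and *Barx2* with 147 and 43.1 CPM. The highest of these were *Elf3* with 17.9 and 46.7 CPM, *Foxn1*, a factor of follicle and suprabasal keratinocytes, with 63.7 and 165 CPM and *Tfap2c* with 130.0 and 305 CPM. *Cebpb*, with the most UMIs, measured 988 and 1216 CPM, and *Ehf* 399 and 381 CPM. In the K14-Cre region *Klf3* (27 UMIs), *Rora* (45), *Barx2* (24) and *Elf3* (26) did not exceed the most counted chemosensory receptor gene (61 UMIs). The sizes of their ratios are therefore uncertain. Of the KLF genes named, *Klf3* and *Klf5* were lower, on 27 and 32 UMIs in that region, and *Klf4* stood at -0.06.

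Along the sections, the epidermal region was split by array column into 4 segments of 38 spots in the Cre-free and 44 spots in the K14-Cre section. *Klf5* measured 220.3, 207, 156 and 211 CPM in the Cre-free segments and 53.9, 33.6, 92.0 and 57.5 CPM in the K14-Cre segments, whose values did not overlap although the intervals of some did. *Hes1* measured 85.1, 138, 72.2 and 98.6 CPM against 261, 157, 403 and 187 CPM, where again the values did not overlap and the intervals of some did. Late differentiation genes in sum lay between 15570.5 and 34172 CPM and between 3770.4 and 7126 CPM. The receptor genes read as background (929 to 2253 against 7908 to 10357 CPM in sum) did not overlap either. Nor did the keratinocyte markers in sum (110494 to 134087 against 67727 to 77104 CPM). The share of all genes without overlap was not computed, so a lack of overlap is not particular to these genes. *Grhl1* was lower in 15 of the 16 pairs of segments and *Notch1* in 4 of 16. For *Notch1* the Cre-free segments were close, at 66.7 to 81.9 CPM, and the K14-Cre segments ranged from 57.5 to 195 CPM with the most in the segment at the low columns. *Grhl3* ranged from 362 to 479 CPM and from 138 to 727 CPM, and *Trp63* from 66.7 to 142 CPM and from 11.5 to 178 CPM. The K14-Cre segments thus varied more for *Grhl3*, *Notch1* and *Trp63*, on 86952 to 241087 UMIs each. The Cre-free segments held more, 179956 to 399473 UMIs each. The lowest *Trp63* value rests on 1 UMI, and the part of counting error in this spread was not tested. Segments of 1 section share a mouse and a library and are no replicates.

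**Figure D5:**
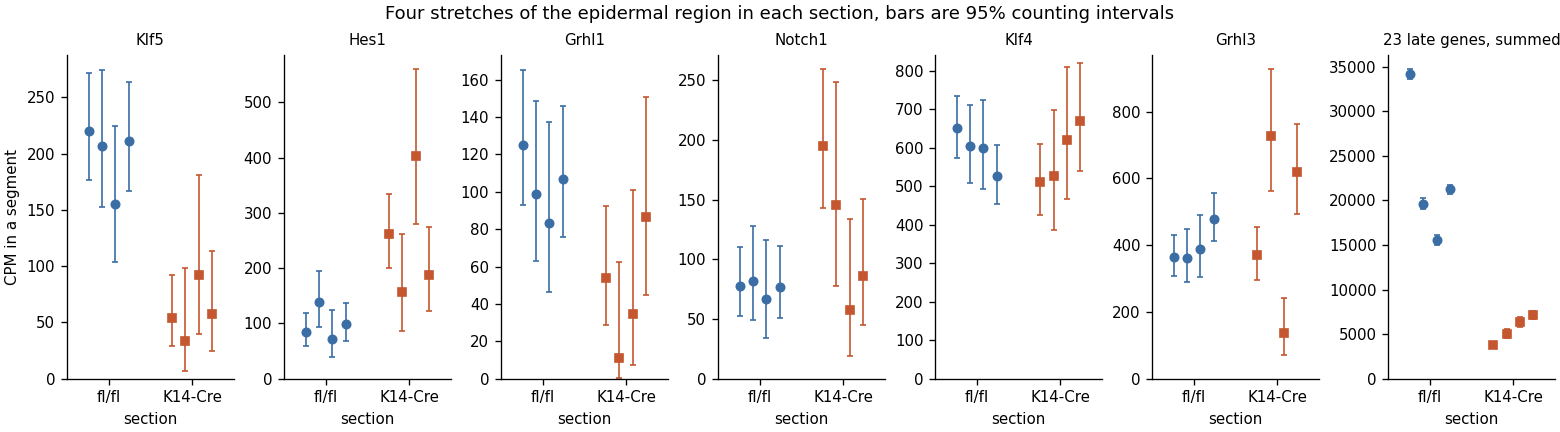
CPM of 6 of the genes and of 23 late differentiation genes summed in 4 segments of the epidermal region, ordered by array column, in the Cre-free (S1pr2 fl/fl) section (circles) and the K14-Cre section (squares), with 95% counting intervals. The segment values of the sections do not overlap for *Klf5* (155.6 to 220.3 against 33.6 to 92.0 CPM), *Hes1* (72.2 to 138 against 157 to 403 CPM) and the late genes, and they overlap for *Grhl1*, *Notch1*, *Klf4* and *Grhl3*.

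Within the epidermal region, spots were ordered by the share of *Krt1* and *Krt10* among the UMIs of *Krt1*, *Krt10*, *Krt5* and *Krt14*, and the upper and lower classes of 3 were compared. These classes are ranges of a continuous share and no cell types, from 2.49 to 23.4% and from 45.5 to 83.7% in the Cre-free section, and up to 4.67% and from 17.9 to 70.7% in the K14-Cre section. *Klf4* was higher in the suprabasal-rich spots of the Cre-free section, with 645 against 476 CPM, or 0.44 (0.17 to 0.71), and measured 603 against 566 CPM, or 0.09 (-0.32 to 0.50), in the K14-Cre section. *Hes1* was lower in the suprabasal-rich spots of the Cre-free section, with 64.7 against 109 CPM, or -0.76 (-1.50 to -0.04), and measured 311 against 212 CPM, or 0.55 (-0.08 to 1.19), in the other. In the K14-Cre section *Ovol1* was lower in these spots, at -0.62 (-1.15 to -0.11), as was *Notch3* at -1.48 (-2.84 to -0.29), and *Grhl1* was higher on 3 and 11 UMIs. The other genes had intervals that held 0 in both sections. The late differentiation genes were higher in these spots by 1.79 (1.74 to 1.84) and 0.92 (0.79 to 1.05).

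Across blocks of neighboring spots, the genes most like each regulator were found by the lower of the Pearson correlations of the sections, over 80 blocks of the Cre-free and 70 blocks of the K14-Cre section and 2787 genes. Blocks share a library, and their depth and tissue makeup move all epidermal genes together, so these values are a description. *Zfp750* was most like *Krt14* and *Fabp5* (0.80 each). *Grhl3* was most like *Fam25c* (0.73) and the desmocollin gene *Dsc1* (0.72), and *Ovol1* most like *Lgals7* (0.72) and *Calm4* (0.71). *Klf4* was most like *Hr* (0.69) and *S100a8* (0.67). The Notch genes had weaker partners, *Lrp10* (0.48) and *Cd9* (0.47) for *Notch3*, *Mcm2* and *Ubald2* (0.42 each) for *Hes1*, and *Calm2* (0.39) and *H2-Ab1* (0.38) for *Notch1*. *Trp63*, *Klf5* and *Grhl1* had fewer than 200 UMIs in the K14-Cre section and were not ranked.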

How the data were processed

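The authors sectioned formalin-fixed skin, hybridized gene probes, transferred them to a Visium CytAssist slide and made the matrices with Space Ranger (3.0.0 in the matrix header, mm10 in the submitters' processing notes). The deposited values are raw UMI counts per gene and tissue spot, not normalized, with spot positions. The study's own analysis in Partek Flow was not used. Spots with at least 50 UMIs (all but 46 and 7) were clustered per section (scanpy 1.11.5, igraph 0.11.9, 2000 variable genes, 20 components, 15 neighbours, Leiden resolution 1), leaving out all listed genes. No doublet caller was run, since a spot is no cell. UMIs were summed per region and scaled to 1000000 (CPM), with exact Poisson intervals for levels, conditional binomial intervals for ratios and Clopper-Pearson intervals for shares, all 95% and for counting error only. UMIs are counted molecules, and 3 counts are the floor of a 0. A gene was called at 2-fold among genes with at least 10 UMIs over both regions. No test across sections was possible. The summing and ratios were tested on simulated counts.

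The members and all lists were chosen with earlier results of these data known, so no list is independent evidence. Named genes were all members and, from each list, the genes with the 3 highest and 3 lowest ratios among those with at least 30 UMIs and the 2 with most UMIs. For likeness, log2(CPM + 10) was used over blocks of 4 rows by 8 columns with at least 10000 UMIs and genes with at least 200 UMIs in each section. Gene positions and promoter sequences are RefSeq on GRCm38.p6. Alternatives were another resolution (0.5), 200 spots ranked by keratinocyte markers or the uppermost 2 rows as epidermis, other UMI minimums, connected spots, background taken off, TMM scaling (edgeR 4.0.16), scaling to keratinocyte markers and means over spots. The columns below 90, the sections without bent ends, and the *Sprr2*- and *Lce3*-led cluster counted in were chosen after seeing the data. A gene that the naming rule picks is not reported here.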

Additional observations from a re-analysis of the deposited data

Results flagged for a closer look

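*Notch1* stood out because its levels in epidermal and other spots were ordered in opposite ways in the 2 sections. The log2 ratio of epidermal over other spots was -0.34 (-0.69 to -0.01) without Cre and 0.71 (0.31 to 1.10) with K14-Cre. The difference was not tested, since each genotype had 1 section. In the K14-Cre epidermal region 17 of the 77 *Notch1* UMIs lay in 1 spot, which counting intervals do not allow for. Over the alternative settings the log2 ratio ranged from -0.46 to 0.17 without Cre and from 0.05 to 1.19 with K14-Cre. The value without Cre lay above 0 with a TMM factor (0.17) and with the uppermost 2 rows taken as epidermis (0.12).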

How the results depend on the processing

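No paired analysis was possible because each genotype had 1 section, and for the same reason no section could be left out. Over the alternatives, 41 values of the main results moved and 106 moved by less than their interval or by less than 1.5 times for a count. Of the single genes, *Notch1* over other spots in the Cre-free section turned from -0.34 to 0.17 with TMM and 0.12 with the uppermost 2 rows, and *Klf5* in the K14-Cre section from 0.76 to -0.01 at resolution 0.5. The epidermal over other ratios of *Notch3* (0.47), *Hes1* (0.13) and *Trp63* (0.20) in the Cre-free section also turned. At their lowest over the alternatives they were -0.07, -0.24 and -0.03. Between the epidermal regions, the summed ratio of the 10 genes moved from -0.01 to -0.13 with 200 spots ranked by keratinocyte markers, to -0.74 with a TMM factor and to 0.80 with scaling to keratinocyte markers. Their median moved to 0.10 at resolution 0.5, -0.15 with the ranked spots, 0.19 with array columns below 90, -0.74 with TMM and 0.80 with marker scaling. The number at least 2-fold lower went from 2 to 1 at resolution 0.5, with the ranked spots and with the *Sprr2*- and *Lce3*-led cluster counted in (*Grhl1* at -0.61, -0.71 and -0.95), and to 0 with marker scaling. The number at least 2-fold higher went from 1 to 2 with columns below 90 and with marker scaling, and to 0 with TMM. The shares of all genes at the alternative settings were not computed, so counts at these settings stand without them. The median of all genes itself was 1.38 with marker scaling and -0.17 with TMM.

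The late differentiation genes stayed lower in each setting. Their summed ratio moved to -2.63 with the ranked spots, -2.62 with the uppermost 2 rows, -2.35 with the added cluster, -2.82 with columns below 90, -2.96 with TMM, -1.41 with marker scaling and -1.97 with means over spots. Their median moved to -2.22 at resolution 0.5, -2.54 with the ranked spots, -2.68 with the uppermost rows, -2.46 with columns below 90, -2.40 with background taken off, -2.78 with TMM, -1.24 with marker scaling, -1.98 with means over spots and -1.86 with no minimum, and 13 in place of 20 were at least 2-fold lower with marker scaling.

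Epidermal over other spots in the Cre-free section, the summed ratio of 1.04 moved to 1.12 at resolution 0.5, 0.96 with the uppermost rows, 1.13 with the added cluster, 1.55 with TMM and 0.93 with means over spots. Over depth, the sum of 1.23 in the Cre-free section moved to 1.72 with distance from the epidermal region, 1.31 with connected spots and 1.43 without the bent ends, and the sum of 2.59 in the K14-Cre section moved to 2.87 with distance. Of the single genes over depth, *Notch3* (-0.03) and *Hes1* (-0.20) of the Cre-free section turned. At their highest over the alternatives they were 0.94 and 0.48. The cause of these shifts was not tested. Counting limits the K14-Cre region most, where *Klf5* rests on 32 and *Grhl1* on 29 UMIs.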
